A study of Homo sapiens with 9 samples.

Results

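The core proteins of the spliceosome were followed through their messenger RNAs in ACHN cells, an established human renal cell carcinoma line, treated with piericidin A. The set held every protein-coding gene of the authors' filtered log2 FPKM table whose symbol starts with SNRP, SF3A, SF3B or PRPF, or is LSM followed by a number. This rule used no measured change and found 47 genes among the 18859 of that table (13801 of them protein-coding), and among 30673 genes in the full table. By their known roles they are 8 Sm ring proteins, 4 SNRP proteins specific to U1 or U2, 3 SF3A and 6 SF3B subunits, LSM1 to LSM8, 5 other LSm proteins, 5 PRPF proteins of U4/U6 and U5, and 8 further PRPF proteins.

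The 9 RNA-seq libraries fall into 3 groups of 3: ACHN cells with 0.1% DMSO, with 25 nM piericidin A and with 50 nM piericidin A. Piericidin A is an inhibitor of respiratory complex I, and the study asked how it acts on these cells. The sources used here do not give the treatment time, the RNA selection, the strandedness of the libraries or whether DMSO was also in the drug groups. It is likewise not stated that replicates came from separate cultures, and p-values then measure only the spread between these samples, which may be technical. Each library held 24365472 to 29245674 fragments, recovered from the deposited values, and between 23641 and 26388 genes above 0. Renal epithelial markers fitted the label: PAX8, a renal lineage transcription factor, lay between 66.0 and 93.5 FPKM (fragments per kilobase of gene length, scaled for sequencing depth) over the 9 libraries, PAX2 between 11.9 and 17.4, and the keratin KRT8 between 101 and 144. The endothelial genes PECAM1 and VWF reached at most 0.0199 and 0.0149 FPKM, and the hepatocyte gene ALB at most 0.0342, while the fibroblast genes COL1A1 and PDGFRB lay at 1.65 to 3.21 and 0.309 to 0.756 FPKM.

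The spliceosome removes introns from precursor messenger RNAs and is assembled on each intron from small nuclear ribonucleoprotein particles (snRNPs), each named for its RNA. U1 recognises the start of the intron and U2 the branch site, and the U4/U6.U5 tri-snRNP then joins and is rearranged into the catalytic centre. U1, U2, U4 and U5 RNAs are each encircled by a ring of Sm proteins, and U6 by a related ring of LSm proteins; SF3A and SF3B complete the U2 particle, and most PRPF proteins belong to the tri-snRNP or join it during activation.

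Promoter sequence of several of these genes is shown first. A short letter pattern recurs in the promoter windows of the set, and whether it bears on the changes described later was not tested. Of the 47 genes, 38 had a RefSeq promoter window (GRCh38.p14), of which the 250 bases before the start were searched on both strands for 9 letter patterns. The ETS core CCGGAAG, the letters bound by ETS family transcription factors, was present in 17 of these 38 genes (44.7%), against 10.24% of all 27305 genes with a window and 17.81% of the 10559 coding genes of the filtered table that had one. It was found in 3 of 3 SF3A genes, 3 of 5 SF3B genes, 4 of 7 Sm ring genes, 3 of 4 U1 and U2 genes, 2 of 6 genes of the LSM1 to LSM8 group, 1 of 4 and 1 of 5 in the PRPF groups, and 0 of 4 genes of the other LSm proteins. The CCAAT box (CCAAT) was in 17 of 38 genes (44.7%), against 41.30% of the coding genes, and the GC box (GGGCGG) in 23 (60.5%), against 73.95%. The E-box (CACGTG) was found upstream of 1 of the 38 genes (2.6%), against 11.07% of the coding genes. A TATA box (TATAAA) was likewise found upstream of 1 gene, against 8.21%, and the NRF1 core (10 letters) of 1 gene, against 2.2%. The cyclic AMP response element (TGACGTCA), the YY1 core (10 letters) and the heat shock element (13 letters) were in 0 of the 38, against 3.22%, 0.74% and 0.48%. None of these letter patterns contains another, a match describes the letters only, and binding was not measured here.

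The stretches below are the longest parts of the upstream window free of annotated exons, for 7 genes chosen to show both patterns and the differing responses described later: 3 snRNP genes that rose at both doses (SNRPG, SNRPF, SNRPA1), one SF3B gene called at 25 nM only against DMSO (SF3B6), and LSM8, LSM10 and PRPF38B. Each reads 5′ to 3′ on the gene's strand, with the ETS core (in either orientation) and the CCAAT box (in either orientation) in capitals. SNRPG lies at chr2:70293459-70293617 (minus strand), SNRPF at chr12:95858840-95858927 (plus), SNRPA1 at chr15:101295283-101295418 (minus), SF3B6 at chr2:24076444-24076525 (minus), LSM8 at chr7:118183914-118184031 (plus), LSM10 at chr1:36397909-36398158 (minus) and PRPF38B at chr1:108692060-108692309 (plus). The SNRPG stretch precedes the RefSeq start but lies inside the gene span of the expression table (70281362-70293771), between annotated exons. By that span it is not upstream of the gene.
SNRPG: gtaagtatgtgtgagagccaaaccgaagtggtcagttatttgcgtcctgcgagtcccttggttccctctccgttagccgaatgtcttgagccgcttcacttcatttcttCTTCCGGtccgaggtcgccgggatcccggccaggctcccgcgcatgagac
SNRPF: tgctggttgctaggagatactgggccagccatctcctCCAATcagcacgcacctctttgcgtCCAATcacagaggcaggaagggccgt
SNRPA1: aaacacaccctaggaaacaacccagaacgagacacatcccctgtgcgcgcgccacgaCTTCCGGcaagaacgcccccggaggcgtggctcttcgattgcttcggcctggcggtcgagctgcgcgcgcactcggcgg
SF3B6: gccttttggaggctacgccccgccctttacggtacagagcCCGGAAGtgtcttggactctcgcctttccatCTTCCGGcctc
LSM8: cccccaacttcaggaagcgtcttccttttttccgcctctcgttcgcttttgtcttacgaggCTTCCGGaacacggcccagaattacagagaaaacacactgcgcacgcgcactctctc
LSM10: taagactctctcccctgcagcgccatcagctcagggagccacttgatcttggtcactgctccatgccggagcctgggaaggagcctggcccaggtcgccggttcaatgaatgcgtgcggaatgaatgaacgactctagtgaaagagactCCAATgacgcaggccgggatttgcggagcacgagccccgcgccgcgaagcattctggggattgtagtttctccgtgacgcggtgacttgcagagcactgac
PRPF38B: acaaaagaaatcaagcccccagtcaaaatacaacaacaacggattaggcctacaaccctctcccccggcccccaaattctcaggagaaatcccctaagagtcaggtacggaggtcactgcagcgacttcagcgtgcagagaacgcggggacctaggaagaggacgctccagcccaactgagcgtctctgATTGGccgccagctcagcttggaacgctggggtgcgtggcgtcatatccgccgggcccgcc

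Nearly all of these messenger RNAs were well expressed in ACHN cells. Mean FPKM over the 9 libraries ran from 0.398 (SNRPN) to 95.1 (SNRPD2) with a median of 19.6, and 43 of the 47 genes had a mean above 5 FPKM. All 47 passed the filter for testing, at least 0.5 FPKM in at least 3 libraries, but SNRPN passed only through treated libraries, lying at 0.129 to 0.189 FPKM in DMSO. It is therefore included in the counts over the 47 genes as a gene called higher at each dose, and left out of those for the Sm ring. Per length, the other Sm ring genes spread widely in DMSO, from 9.67 ± 0.252 FPKM for SNRPD1 to 81.0 ± 1.53 for SNRPD2 (SD, n = 3), although their proteins sit in the ring as single copies. The 47 genes together took 0.391 ± 0.001% (SD, n = 3) of the fragments of the DMSO libraries. Their share was 0.447 ± 0.005% in the 25 nM group and 0.454 ± 0.003% in the 50 nM group. The libraries of either dose did not overlap those of DMSO in this share, and the 2 doses lay within 0.441% to 0.457%.

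Changes were tested with limma on log2(FPKM + 0.1) over all 15541 genes that passed the filter, with Benjamini-Hochberg adjustment over all of them, and a gene was called at an adjusted p under 0.05. At 25 nM, 39 of the 47 genes were called against DMSO (83.0%), 35 higher and 4 lower, where 52.0% of all tested genes were called, 26.3% higher and 25.8% lower, and 59.5% of tested coding genes, 28.0% higher and 31.6% lower. Their median log2 fold change was 0.33, against 0.02 over all tested genes and -0.02 over tested coding genes. In 36 genes all 3 libraries at 25 nM lay above all 3 DMSO libraries, and in 6 they all lay below, where 31.5% and 31.1% of all tested genes did so (62.6% in either direction). At 50 nM, 35 genes were called (74.5%), 28 higher and 7 lower, where 60.7% of all tested genes were called, 29.2% higher and 31.5% lower, and 65.6% of tested coding genes, 25.7% higher and 39.9% lower. The median was 0.23, against 0.00 over all tested genes and -0.09 over tested coding genes. Without SNRPN, 34 of 46 genes were higher and 4 lower at 25 nM (median 0.32), and 27 higher and 7 lower at 50 nM (median 0.23). All 3 libraries at 50 nM lay above DMSO in 30 genes and below it in 9, where 33.9% and 36.5% of all tested genes did so (70.4% together). These 2 comparisons share the DMSO libraries. Most changes were small: only PRPF3 reached a fitted change of at least 2-fold, beside SNRPN, which passed the filter only through treated libraries.

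**Figure D1:**
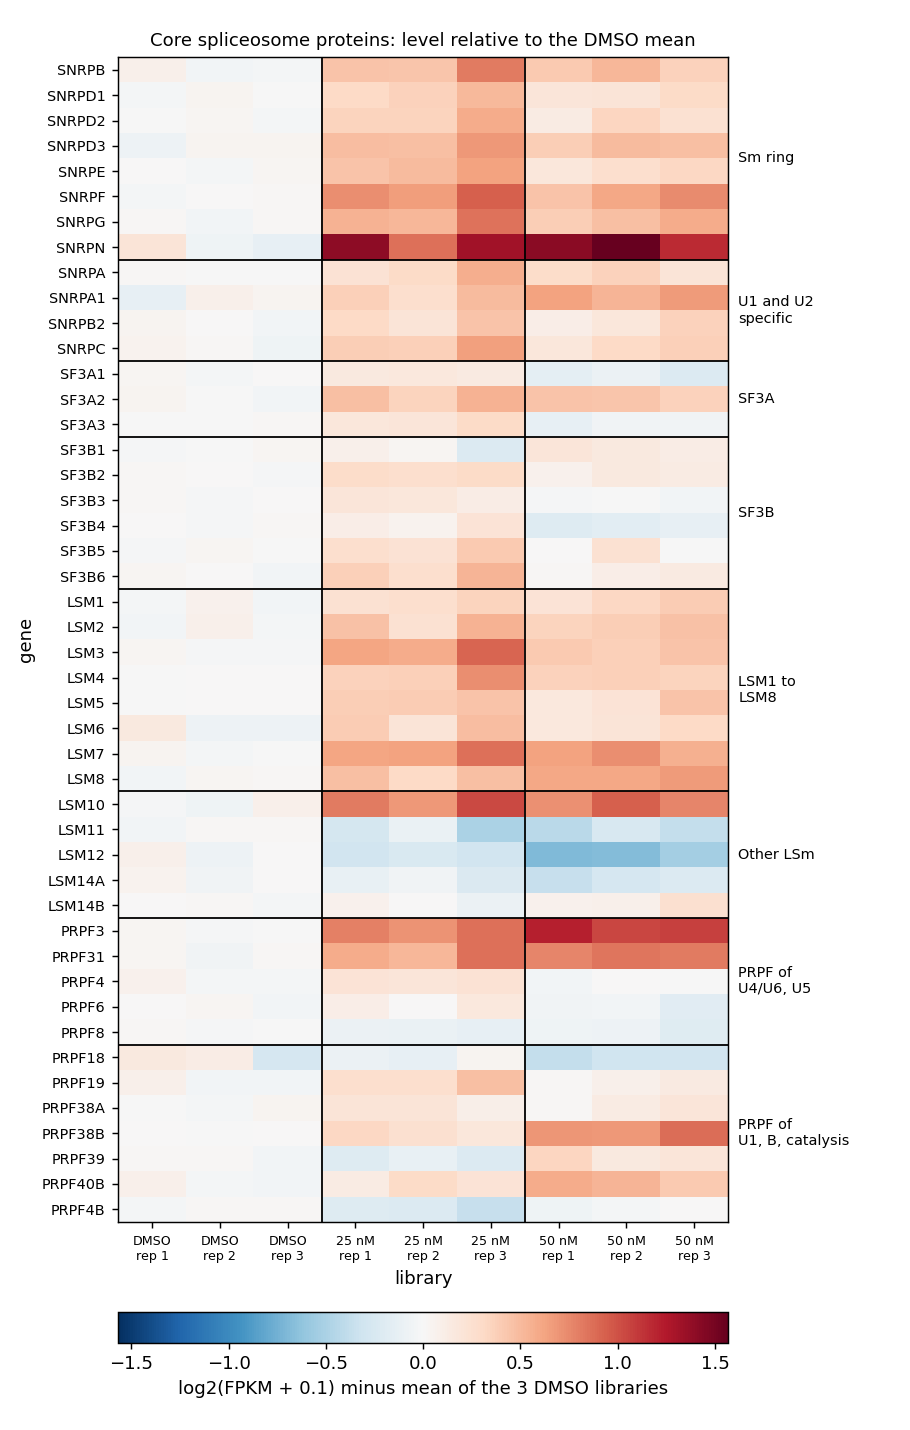
Heat map of 46 of the core spliceosome genes (rows, grouped by role) in the 9 libraries (columns); colour gives log2(FPKM + 0.1) minus the mean of the 3 DMSO libraries. The Sm ring and LSM1 to LSM8 are red at both doses, SF3A and SF3B are mostly red at 25 nM only, and replicate 3 at 25 nM is the highest of its group in 31 of the 47 genes.

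Scaling and one library bear on these counts. The sum of FPKM rose from 249274 to 255396 in DMSO to between 276520 and 310119 in the treated libraries. Rescaling every library to the same FPKM sum (TPM scaling) moved the median of all tested genes to -0.17 at both doses, and 21 of the 47 genes were then higher and 8 lower at 25 nM, and 17 higher and 12 lower at 50 nM. All tested genes were then 14.1% higher and 40.2% lower at 25 nM, and 19.9% higher and 43.0% lower at 50 nM. Relative to that shift, the median of the 47 genes was 0.30 at 25 nM and 0.22 at 50 nM. With equal fragment totals the counts were 33 higher and 6 lower at 25 nM, and 33 higher and 3 lower at 50 nM. All tested genes were then 24.4% higher and 27.4% lower at 25 nM, and 34.1% higher and 26.4% lower at 50 nM. Replicate 3 at 25 nM had the largest FPKM sum, 310119. Without it, 34 genes were higher and 2 lower at 25 nM, with a median of 0.27. All tested genes were then 24.7% higher and 25.1% lower. The 25 nM calls of SF3B4, LSM11 and PRPF39 against DMSO were lost.

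Gene length also moved with the fold changes. Gene length here is the length deposited with the values, not the genomic span: SNRPF has a length of 3043 bases but spans 95858928-95903828. By this length the 47 genes are short, with a median of 3044 bases against 5056 for tested coding genes. Among coding genes, the shortest 25% moved by a median of 0.19 at 25 nM and the longest 25% by -0.21. At 50 nM these medians were 0.08 and -0.23. With a fitted length trend taken out of each library, 36 of the 47 genes were higher and 1 lower at 25 nM (median 0.24), and 28 were higher and 6 lower at 50 nM (median 0.18). All genes tested this way were 28.6% higher and 25.4% lower at 25 nM, and 30.4% higher and 30.8% lower at 50 nM. The part of length in the changes of single genes was not tested further.

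**Figure D2:**
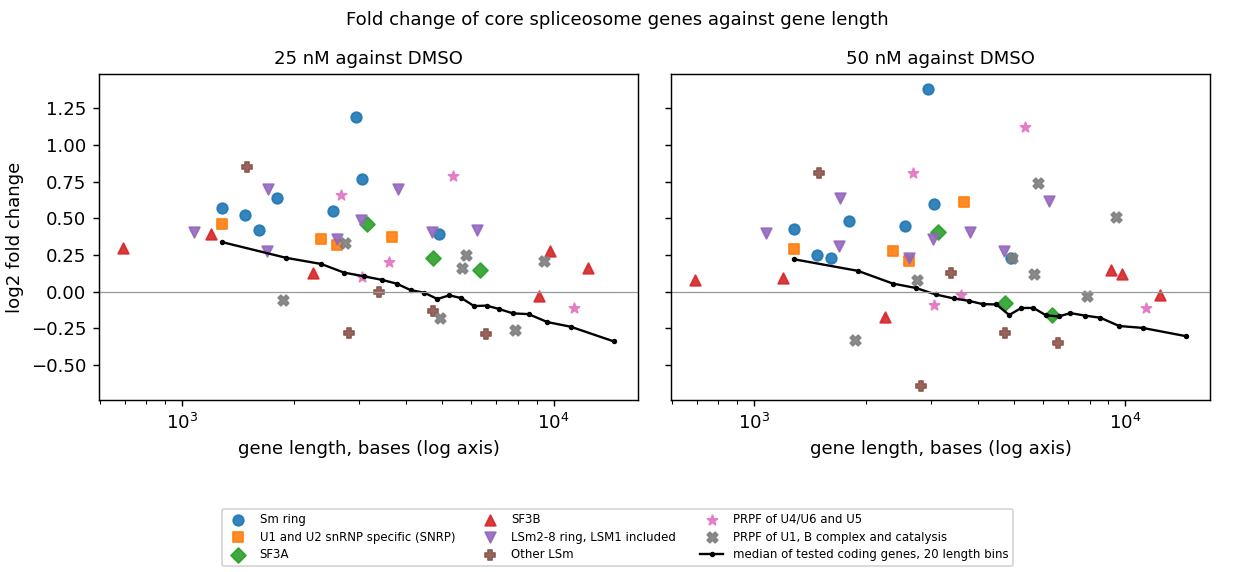
Log2 fold change against deposited gene length, not genomic span (log axis), for 46 of the genes, marked by role, at 25 nM (left) and 50 nM (right) against DMSO. The black line joins medians of tested coding genes in 20 length bins. The line falls with length at both doses, and most Sm ring, U1 and U2, and LSM1 to LSM8 genes lie above it.

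The Sm ring genes rose together. Leaving out SNRPN, 7 of 7 were higher at 25 nM (median log2 fold change 0.55) and 7 of 7 at 50 nM (median 0.43), with no overlap between DMSO and either dose in any of them. SNRPF, which encodes the ring protein SmF (ENSG00000139343, hg38 chromosome 12, 95858928-95903828), measured 27.0, 27.6 and 28.0 FPKM in DMSO, 45.5, 43.4 and 52.8 at 25 nM, and 37.6, 41.8 and 46.0 at 50 nM. Every treated library was above every DMSO library, while the doses overlapped. Its log2 fold change was 0.77 (SE 0.08, adjusted p = 0.000111) at 25 nM and 0.60 (SE 0.08, adjusted p = 0.000284) at 50 nM.

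SNRPD2, which encodes SmD2 and was the most abundant member of the whole set, measured 80.8, 82.6 and 79.5 FPKM in DMSO, 103, 103 and 121 at 25 nM, and 88.7, 102 and 95.6 at 50 nM. All 3 libraries at 50 nM lay above DMSO and below 25 nM. The log2 fold change was 0.42 (SE 0.07, adjusted p = 0.00111) at 25 nM and 0.23 (SE 0.07, adjusted p = 0.019) at 50 nM; the latter call was lost without DMSO replicate 1, DMSO replicate 3 or 50 nM replicate 2, under TPM and with the length trend removed. SNRPE, which encodes SmE, was the one ring gene called between the doses, at 88.2 ± 5.60 FPKM at 25 nM and 73.2 ± 3.48 at 50 nM (log2 fold change -0.27, adjusted p = 0.00543), after 61.4 ± 1.21 in DMSO. Under TPM 7 of these 7 ring genes stayed called at 25 nM and 4 at 50 nM, and with the length trend removed 7 and 5 did.

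SNRPB, SNRPD1, SNRPD3 and SNRPG, which encode the other ring proteins, had log2 fold changes of 0.39 to 0.64 at 25 nM and 0.23 to 0.48 at 50 nM. SNRPG has processed pseudogenes that are nearly identical to it, and reads can be split between them, so its level, 50.7 ± 1.13 FPKM in DMSO, is uncertain. SNRPB shares 20% of its exon bases with a gene on the same strand, and SNRPD3 12% with GGT1. SNRPN, the imprinted and largely neuronal relative of SNRPB, was barely expressed at 0.153 ± 0.0321 FPKM in DMSO, 0.482 ± 0.111 at 25 nM and 0.559 ± 0.0906 at 50 nM. Its fitted log2 fold changes were 1.19 (SE 0.30) at 25 nM and 1.38 (SE 0.30) at 50 nM. SNRPN passed the filter only through treated libraries, so these values are not read as support for a rise. In addition, 23.8% of its exon bases lie in the overlapping gene SNURF, whose reads cannot be told apart from it here.

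The proteins specific to U1 and U2 followed the Sm ring. All 4 genes, SNRPA and SNRPC of U1 and SNRPA1 and SNRPB2 of U2, were higher at both doses, with medians of 0.37 at 25 nM and 0.29 at 50 nM. SNRPC, which encodes U1-C and was the most abundant of them, measured 44.9, 43.8 and 41.3 FPKM in DMSO, 56.5, 56.0 and 67.4 at 25 nM, and 49.1, 54.0 and 56.3 at 50 nM. No treated library fell into the DMSO range, and the doses overlapped. The log2 fold change was 0.46 (SE 0.08, adjusted p = 0.00115) at 25 nM and 0.29 (SE 0.08, adjusted p = 0.0104) at 50 nM. The latter call was lost under TPM and with the length trend removed.

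SNRPA1, which encodes the U2 protein U2-A′ (chromosome 15, 101281510-101295282), climbed with dose. It measured 7.12, 8.24 and 8.05 FPKM in DMSO, 10.1, 9.35 and 11 at 25 nM, and 12.1, 11.3 and 12.4 at 50 nM, so that the 3 groups did not overlap. Against DMSO the log2 fold change was 0.37 (SE 0.07, adjusted p = 0.00281) at 25 nM and 0.61 (SE 0.07, adjusted p = 0.000118) at 50 nM. Between the doses it was 0.24 (adjusted p = 0.0369), a call lost without a filter on low values, with only the 6 libraries compared and without DMSO replicate 3, 25 nM replicate 1, 25 nM replicate 2, 50 nM replicate 1 or 50 nM replicate 3. SNRPB2 was called at 50 nM at an adjusted p of 0.0377, and leaving out any DMSO replicate, 25 nM replicate 1, 50 nM replicate 2 or 50 nM replicate 3 ended that call, as did testing without a filter on low values. Under TPM only SNRPC stayed called at 25 nM and only SNRPA1 at 50 nM among these 4 genes. With the length trend removed 4 stayed called at 25 nM and 3 at 50 nM.

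SF3A and SF3B, which hold U2 on the branch site, were mostly higher at 25 nM and stood lower again at 50 nM. Of the 9 subunits, 8 were higher at 25 nM and none lower (median 0.23), whereas at 50 nM 2 were higher and 2 lower (median 0.08). Directly compared, 7 of the 9 were lower at 50 nM than at 25 nM and none higher (median -0.22). With equal fragment totals 4 were lower and 1 higher between the doses, and under TPM 6 were lower and none higher. Under TPM 2 of the 9 were higher at 25 nM and none lower, and at 50 nM 1 was higher and 4 lower (median -0.09). Under that scaling 43.0% of all tested genes were lower at 50 nM, with a median of -0.17. The TPM count at 50 nM is therefore not read as a fall of these 9 genes. With equal fragment totals the split at 50 nM was 4 higher and none lower (median 0.15), and with the length trend removed 4 higher and 3 lower (median 0.01). Over the whole set 20 of 47 genes (42.6%) were called between the doses, 7 higher and 13 lower at 50 nM, where 33.5% of all tested genes were called, 14.7% higher and 18.8% lower, and 37.5% of tested coding genes, 13.2% higher and 24.3% lower; SF3A and SF3B held 7 of the 13 that were lower. In 8 genes all 50 nM libraries lay above all 25 nM libraries and in 15 below, where 21.0% and 24.4% of all tested genes did so (45.4% together). The median between doses was -0.13 for the 47 genes, -0.01 for all tested genes and -0.06 for tested coding genes. With equal fragment totals the split over the 47 genes was 10 higher and 7 lower, and under TPM it was 7 and 14.

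SF3A1, the SF3A subunit that contacts the U1 particle (chromosome 22, 30331988-30356947), measured 22.4, 21.5 and 22.1 FPKM in DMSO, 24.5, 24.6 and 24.3 at 25 nM, and 19.7, 20.6 and 18.9 at 50 nM. Libraries at 25 nM lay above DMSO and the 50 nM libraries below it, without overlap. The log2 fold changes were 0.15 (SE 0.04, adjusted p = 0.011) at 25 nM, -0.16 (SE 0.04, adjusted p = 0.00768) at 50 nM and -0.31 (SE 0.04, adjusted p = 0.000824) between the doses. The value at 25 nM turned to -0.05 under TPM, and the call at 50 nM was lost with equal fragment totals and with the length trend removed, while the call between the doses held under every alternative. SF3A3, the subunit that bridges the complex to the U2 RNA, showed the same order with 19.8, 19.8 and 20.1 FPKM in DMSO, 22.6, 22.7 and 24.6 at 25 nM, and 18.2, 19.2 and 19.1 at 50 nM. It was called at 25 nM (log2 fold change 0.23, SE 0.04, adjusted p = 0.00227; lost under TPM) and between the doses (-0.31, SE 0.04, adjusted p = 0.00127), and missed the threshold at 50 nM against DMSO (-0.08, adjusted p = 0.147). SF3A2, the remaining subunit, was higher at both doses by 0.46 and 0.41.

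SF3B4, which binds the pre-mRNA upstream of the branch site (chromosome 1, 149923317-149928344), measured 30.0, 29.4 and 30.3 FPKM in DMSO, 32.2, 31.0 and 34.8 at 25 nM, and 25.9, 26.6 and 27.4 at 50 nM. Its groups did not overlap, with 50 nM lowest. The fall between the doses was -0.29 (SE 0.05, adjusted p = 0.00202). Against DMSO the value at 50 nM was -0.17 (SE 0.05, adjusted p = 0.013; not called with equal fragment totals), and that at 25 nM was 0.13 (SE 0.05, adjusted p = 0.0472). The last is the least firm of the set, since it was called in 5 of 20 alternatives, lost without any 1 DMSO replicate, and turned to -0.07 under TPM and -0.02 with the length trend removed.

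SF3B6, the small subunit next to the branch-site adenosine, measured 66.3, 65.4 and 63.3 FPKM in DMSO, 83.9, 78.1 and 94.4 at 25 nM, and 66.1, 69.9 and 71.9 at 50 nM. All 25 nM libraries stood above the rest, and the 50 nM and DMSO libraries overlapped. Its log2 fold change was 0.39 (SE 0.07, adjusted p = 0.00114) at 25 nM, 0.09 (SE 0.07, adjusted p = 0.26) at 50 nM and -0.30 (SE 0.07, adjusted p = 0.0088) between the doses; with the length trend removed the 50 nM value was -0.18. SF3B1, the large subunit that closes around the branch site and is recurrently mutated in cancers, differed, with 51.0 ± 0.801 FPKM in DMSO, 50.1 ± 5.19 at 25 nM and 56.7 ± 1.40 at 50 nM, and was called in none of the 3 comparisons. All 3 of its libraries at 50 nM nonetheless lay above every DMSO and every 25 nM library. The log2 fold change at 50 nM was 0.15 against DMSO (adjusted p = 0.0793) and 0.18 against 25 nM (adjusted p = 0.0656). These 2 values were called in 6 and 7 of 20 alternatives. SF3B2, SF3B3 and SF3B5 were called higher at 25 nM (0.28, 0.16 and 0.30) and lower between the doses (-0.17, -0.19 and -0.22), but none of these last 3 calls held with equal fragment totals; under TPM the value of SF3B3 at 25 nM was -0.04 and that of SF3B2 at 50 nM, called at 0.12, was -0.06. With the length trend removed, 3 SF3B values against DMSO that had missed the threshold passed it with the opposite sign, beside that of SF3B6: SF3B5 at 50 nM (0.08, then -0.40, adjusted p = 0.000184), SF3B3 at 50 nM (-0.02, then 0.22, adjusted p = 0.00165) and SF3B1 at 25 nM (-0.03, then 0.16, adjusted p = 0.0123).

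**Figure D3:**
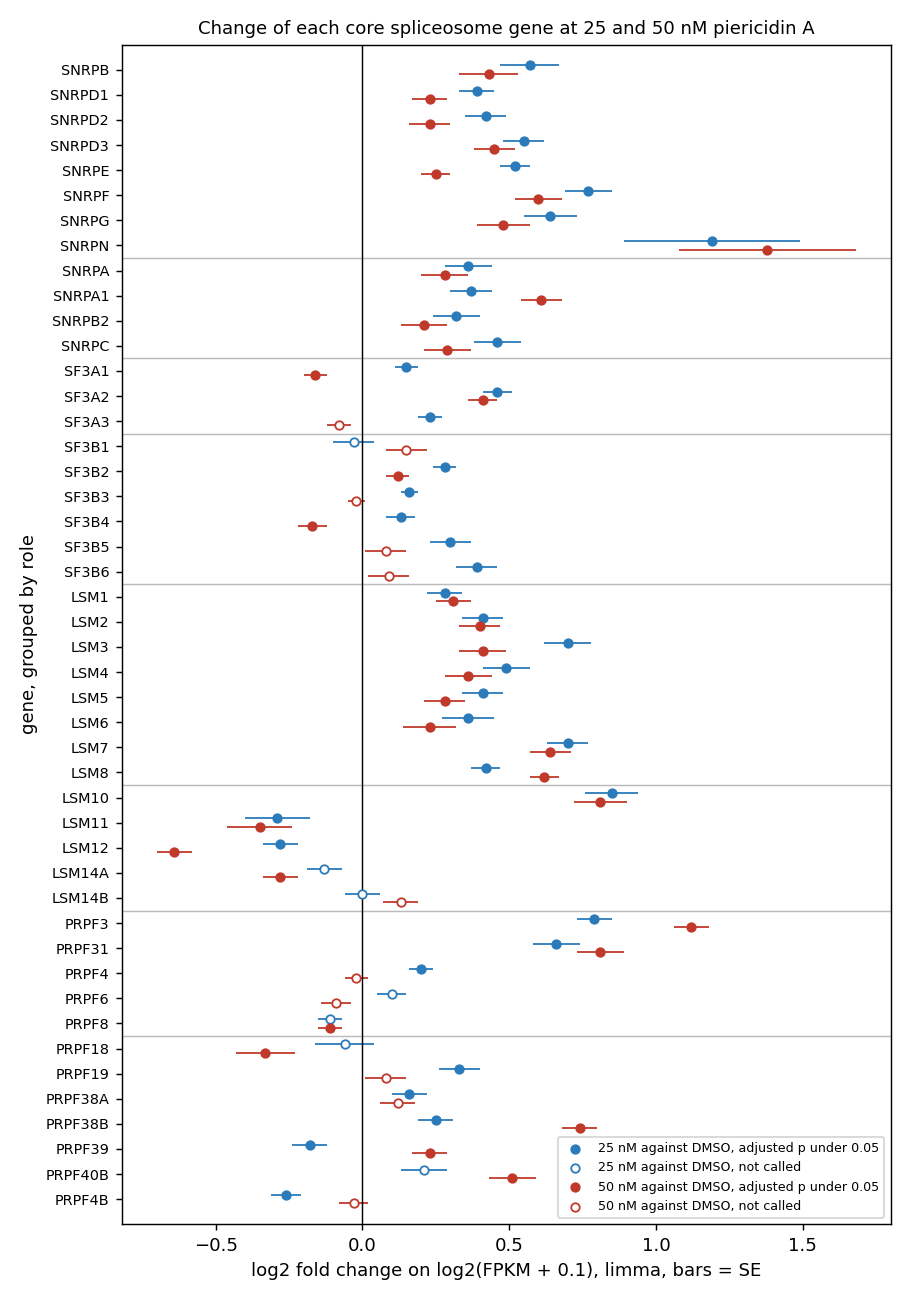
Log2 fold change with its SE (bars) for 46 of the genes at 25 nM (blue) and 50 nM (red) against DMSO; filled points passed the adjusted p threshold and open points did not. Both doses are filled and above 0 for every Sm ring and LSM1 to LSM8 gene, and filled on opposite sides of 0 for SF3A1, SF3B4 and PRPF39. SNRPN is drawn with the Sm ring although it passed the filter only through treated libraries.

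The LSm proteins that form rings on U6 and on decaying messenger RNA also rose as a group. LSM2 to LSM7 are shared by both rings, LSM8 closes the nuclear ring on U6, and LSM1 closes the cytoplasmic ring that promotes decapping. All 8 genes were higher at 25 nM (median 0.42) and at 50 nM (median 0.38), with no overlap with DMSO. Under TPM 6 and 5 of them stayed called, and with the length trend removed 7 and 6.

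LSM7, with LSM3 one of the 2 largest rises of this group at 25 nM, measured 24.7, 23.5 and 23.9 FPKM in DMSO, 36.8, 37.3 and 43.8 at 25 nM, and 37.1, 39.9 and 35.4 at 50 nM. Treated libraries were all above DMSO and the doses overlapped. The log2 fold change was 0.70 (SE 0.07, adjusted p = 7.24e-05) at 25 nM and 0.64 (SE 0.07, adjusted p = 6.36e-05) at 50 nM. LSM4, the most abundant of the group, measured 33.4, 33.7 and 33.7 FPKM in DMSO, 43.3, 43.5 and 55.6 at 25 nM, and 43.2, 43.6 and 42.7 at 50 nM, with log2 fold changes of 0.49 (SE 0.08, adjusted p = 0.00124) and 0.36 (SE 0.08, adjusted p = 0.00484). Replicate 3 at 25 nM stood well above its companions here; the other 2 libraries at 25 nM matched the 50 nM range. LSM6 had the weakest call, at 50 nM (0.23, adjusted p = 0.0448), and lost it under TPM, with the length trend removed, without a filter on low values and without DMSO replicate 2, DMSO replicate 3, 25 nM replicate 1 or any 1 of the 50 nM replicates.

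LSM8 and LSM1, the 2 subunits that set where the ring works, were compared with each other. LSM8 (chromosome 7, 118184032-118192824) measured 8.48, 8.92 and 8.81 FPKM in DMSO, 12.2, 10.9 and 12.1 at 25 nM, and 13.3, 13.3 and 13.9 at 50 nM, and was higher at 50 nM than at 25 nM by 0.20 (adjusted p = 0.0186; lost without 50 nM replicate 3 and when the DMSO libraries were left out of the fit). LSM1 measured 4.49 ± 0.192, 5.46 ± 0.223 and 5.60 ± 0.374 FPKM, and 26.7% of its exon bases overlap an antisense gene. The ratio of LSM8 to LSM1, per length, was 1.93, 1.89 and 2.02 in DMSO, 2.31, 2.02 and 2.12 at 25 nM, and 2.55, 2.35 and 2.34 at 50 nM. All 50 nM libraries were above all others, but an exact two-sided permutation test over 3 against 3 libraries cannot go below p = 0.1, which it gave for 50 nM against either group; it gave p = 0.2 for 25 nM against DMSO. This ratio was chosen after the values were seen.

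The 5 other LSm genes, whose proteins work outside the spliceosome, moved in both directions: 1 was higher and 2 lower at 25 nM (median -0.13), and 1 higher and 3 lower at 50 nM (median -0.28). Under TPM 4 were lower at 25 nM, where 40.2% of all tested genes were lower. With equal fragment totals 2 were higher and 2 lower at 50 nM. LSM10 and LSM11 encode the 2 special subunits of the U7 snRNP, which trims histone messenger RNAs, and they went in opposite directions. LSM10 (chromosome 1, 36391238-36397892) measured 7.31, 7.04 and 7.83 FPKM in DMSO, 13.1, 11.9 and 15.3 at 25 nM, and 12.2, 14.2 and 12.6 at 50 nM. Its log2 fold changes of 0.85 (SE 0.09, adjusted p = 0.000103) and 0.81 (SE 0.09, adjusted p = 7.43e-05) held under every alternative. LSM11 fell from 1.84 ± 0.0463 FPKM to 1.5 ± 0.213 and 1.43 ± 0.0910 (-0.29, adjusted p = 0.0451, and -0.35, adjusted p = 0.0176). The 25 nM call of LSM11 held in 8 of 20 alternatives: it was lost with the length trend removed, without a filter on low values, with only the 6 libraries compared, without DMSO replicate 1, 2 or 3, without 25 nM replicate 1 or 3 and without 50 nM replicate 1, 2 or 3; that at 50 nM was lost with equal fragment totals, with the length trend removed and without DMSO replicate 2, DMSO replicate 3 or 50 nM replicate 1.

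LSM12, an LSm-domain protein that is not part of the U6 ring (chromosome 17, 44034635-44067619), showed the largest fall of the set. It measured 20, 17.8 and 18.9 FPKM in DMSO, 15.3, 16 and 15.3 at 25 nM, and 11.6, 11.7 and 13 at 50 nM. Its groups did not overlap, and the level stepped down at each dose. The log2 fold change was -0.28 (SE 0.06, adjusted p = 0.00315) at 25 nM, -0.64 (SE 0.06, adjusted p = 1.93e-05) at 50 nM and -0.36 (SE 0.06, adjusted p = 0.002) between the doses, and all 3 calls held under every alternative. LSM14A, a protein of cytoplasmic processing bodies, measured 42.4, 39.4 and 40.9 FPKM in DMSO, 37.8, 39.3 and 34.8 at 25 nM, and 31.9, 34.1 and 35.3 at 50 nM. It passed at 50 nM (-0.28, SE 0.06, adjusted p = 0.00256) and missed the threshold at 25 nM (-0.13, SE 0.06, adjusted p = 0.0787). Its relative LSM14B was called in no comparison.

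**Figure D4:**
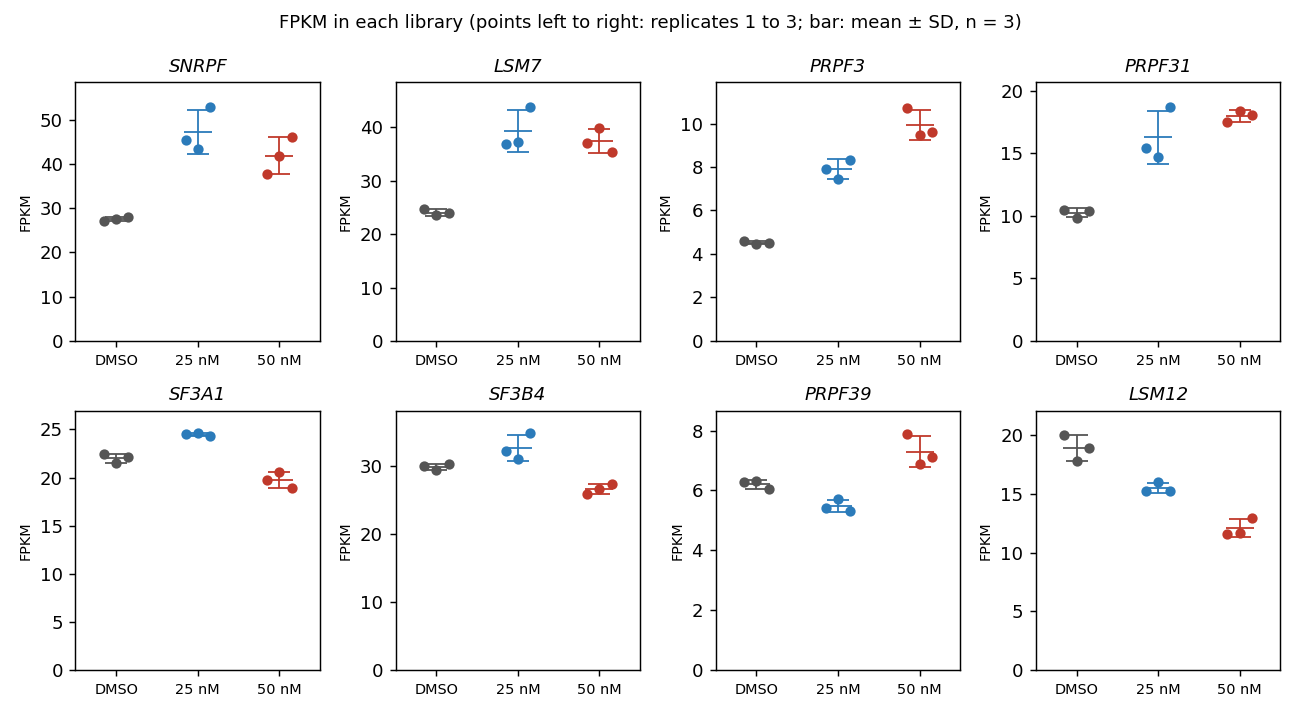
FPKM in each library for 8 of the genes (points, replicates 1 to 3 from left to right; bars, mean ± SD, n = 3); each axis starts at 0. PRPF3 and PRPF31 are above DMSO at both doses, SF3A1 and SF3B4 are highest at 25 nM and lowest at 50 nM, PRPF39 is lowest at 25 nM and highest at 50 nM, and LSM12 falls at each dose.

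Among the PRPF proteins of the tri-snRNP, 3 of 5 were higher at 25 nM (PRPF3, PRPF31 and PRPF4), and at 50 nM 2 were higher (PRPF3 and PRPF31) and 1 lower (PRPF8). Under TPM the splits were 2 higher and 1 lower, then 2 and 3, and with the length trend removed 4 and 0, then 2 and 0. PRPF3, a U4/U6 protein whose mutations cause retinitis pigmentosa (chromosome 1, 150321476-150353195), measured 4.62, 4.46 and 4.50 FPKM in DMSO, 7.92, 7.44 and 8.34 at 25 nM, and 10.7, 9.49 and 9.60 at 50 nM. Each dose stood clear of the one below. The log2 fold change was 0.79 (SE 0.06, adjusted p = 1.85e-05) at 25 nM, 1.12 (SE 0.06, adjusted p = 1.53e-06) at 50 nM and 0.33 (SE 0.06, adjusted p = 0.00399) between the doses, and each call held under every alternative.

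PRPF31, which binds the U4 RNA beside PRPF3 and is mutated in the same disease (chromosome 19, 54115410-54131719), measured 10.5, 9.84 and 10.4 FPKM in DMSO, 15.4, 14.7 and 18.7 at 25 nM, and 17.5, 18.4 and 18.1 at 50 nM. All treated libraries lay above DMSO, and the doses overlapped through replicate 3 at 25 nM. Its log2 fold changes were 0.66 (SE 0.08, adjusted p = 0.000196) and 0.81 (SE 0.08, adjusted p = 3.43e-05); 22% of its exon bases overlap an antisense gene and 10% overlap TFPT. PRPF4, the direct partner of PRPF3, was at 9.84 ± 0.367 FPKM in DMSO, 11.4 ± 0.169 at 25 nM and 9.73 ± 0.190 at 50 nM, and so was called higher at 25 nM (0.20, adjusted p = 0.00278; lost under TPM) and lower between the doses (-0.22, adjusted p = 0.00399).

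PRPF8, the scaffold of the catalytic centre in U5, measured 41.5, 40.5 and 40.8 FPKM in DMSO, 38.5, 38.1 and 37.3 at 25 nM, and 39.1, 38.8 and 35.9 at 50 nM. All treated libraries lay below DMSO, by a small margin: the log2 fold change was -0.11 at each dose (SE 0.04, adjusted p = 0.0508 at 25 nM and 0.0415 at 50 nM). PRPF8 is long, at 11355 bases, and with the length trend removed these values became 0.14 and 0.12; the 50 nM call was also lost with equal fragment totals, without a filter on low values, with voom on the recovered fragments and without any 1 DMSO replicate, 25 nM replicate 1, 25 nM replicate 2 or 50 nM replicate 3. PRPF6, which bridges U5 and U4/U6, was called only between the doses (-0.19, adjusted p = 0.0239), and lost that call with equal fragment totals, under TPM, with the length trend removed, with only the 6 libraries compared, with the replicate block, and without 25 nM replicate 1 or 50 nM replicate 3.

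The 8 remaining PRPF genes gave a mixed picture, with 3 higher and 2 lower at 25 nM (median 0.10) and 3 higher and 1 lower at 50 nM (median 0.10). Under TPM 1 was higher and 3 lower, then 2 and 2, with medians of -0.10 and -0.08. The median of all tested genes was then -0.17 at both doses. With the length trend removed 5 were higher and none lower at 25 nM (median 0.23), and 6 higher and 1 lower at 50 nM (median 0.19). Between the doses 4 were higher at 50 nM and 1 lower. PRPF38B, a relative of the B-complex protein PRPF38A (chromosome 1, 108692323-108701803), measured 8.15, 8.11 and 8.17 FPKM in DMSO, 10.2, 9.71 and 9.24 at 25 nM, and 13.2, 13.1 and 15 at 50 nM. All 3 groups were separate, in the order of dose. The log2 fold change was 0.25 (SE 0.06, adjusted p = 0.00678; lost under TPM) at 25 nM, 0.74 (SE 0.06, adjusted p = 1.06e-05) at 50 nM and 0.49 (SE 0.06, adjusted p = 0.000648) between the doses, the largest rise between doses in the set.

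PRPF39, a U1-associated protein that helps recognise the start of the intron (chromosome 14, 45084099-45116282), reversed direction between the doses. It measured 6.29, 6.31 and 6.04 FPKM in DMSO, 5.4, 5.70 and 5.32 at 25 nM, and 7.88, 6.90 and 7.12 at 50 nM. Libraries at 25 nM were all below DMSO and the 50 nM libraries all above. It was called lower at 25 nM (-0.18, SE 0.06, adjusted p = 0.0272), higher at 50 nM (0.23, SE 0.06, adjusted p = 0.00784) and higher between the doses (0.41, SE 0.06, adjusted p = 0.00124). The rise between doses held under every alternative; the 25 nM call was lost with the length trend removed, without a filter on low values and without DMSO replicate 1, DMSO replicate 2, 25 nM replicate 1 or 25 nM replicate 3, and the 50 nM call was lost under TPM. FKBP3 on the opposite strand shares 13.2% of the exon bases of PRPF39.

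PRPF4B, a kinase that phosphorylates tri-snRNP proteins, measured 8.17, 8.47 and 8.43 FPKM in DMSO, 7.26, 7.17 and 6.47 at 25 nM, and 8.0, 8.17 and 8.38 at 50 nM. It was low at 25 nM alone, by -0.26 (SE 0.05, adjusted p = 0.00265; lost with the length trend removed), and higher between the doses by 0.23 (SE 0.05, adjusted p = 0.0093). PRPF19, the ubiquitin ligase of the complex that activates the spliceosome, went the other way with 24.9, 23.0 and 23.0 FPKM in DMSO, 28.3, 28.3 and 32.7 at 25 nM, and 23.9, 24.9 and 26.1 at 50 nM. Its log2 fold change was 0.33 (SE 0.07, adjusted p = 0.0025) at 25 nM, 0.08 (adjusted p = 0.312) at 50 nM and -0.25 (SE 0.07, adjusted p = 0.0173) between the doses, the last lost with equal fragment totals and without 50 nM replicate 1.

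PRPF40B, a U1-associated protein, rose at 50 nM from 1.41 ± 0.0708 to 2.04 ± 0.130 FPKM (0.51, adjusted p = 0.000642). It shares 28.0% of its exon bases with FMNL3 and 20.7% with FAM186B, both on the opposite strand. PRPF18, a factor of the second catalytic step, fell at 50 nM from 4.04 ± 0.624 to 3.17 ± 0.0940 FPKM (-0.33, adjusted p = 0.0225). That call was lost without DMSO replicate 1, DMSO replicate 2, 50 nM replicate 1 or 50 nM replicate 2, and 42.0% of the exon bases of PRPF18 are shared with another coding gene on its strand. PRPF38A was called only at 25 nM (0.16, adjusted p = 0.0439) and in 10 of 20 alternatives, and its value was -0.03 under TPM.

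Across the set, 19 genes were called higher at both doses and not between them, 4 were higher at both and higher again at 50 nM (SNRPA1, LSM8, PRPF3 and PRPF38B), and 3 were higher at both but lower at 50 nM than at 25 nM (SNRPE, SF3B2 and LSM3). The 19 include SNRPN, which passed the filter only through treated libraries. A further 6 were higher at 25 nM, not called at 50 nM and lower between the doses: SF3A3, SF3B3, SF3B5, SF3B6, PRPF4 and PRPF19. SF3A1 and SF3B4 were the 2 genes called higher at 25 nM and lower at 50 nM, and PRPF39 the single gene called in the opposite order. SF3B1 and LSM14B were called in no comparison.

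Other spliceosome and snRNP assembly genes, 99 in 9 lists of which 97 were tested, changed about as often as genes at large. At 25 nM 41 were higher and 14 lower (56.7% called, median 0.14), and at 50 nM 33 were higher and 23 lower (57.7%, median 0.10), against backgrounds of 52.0% and 60.7%. Between the doses 10 were higher and 28 lower (39.2%), against 33.5%. Under TPM the splits were 21 higher (21.6%) and 30 lower at 25 nM and 19 higher (19.6%) and 38 lower at 50 nM, where all tested genes were 14.1% and 19.9% higher. With equal fragment totals the split at 50 nM was 47 higher and 19 lower and that between the doses 15 and 11, where all tested genes were 34.1% higher at 50 nM and 20.3% higher between the doses. With the length trend removed 45 were higher and 19 lower at 50 nM. Leaving out 50 nM replicate 1 cut the calls between the doses to 23.

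Lists of proteins in or near the snRNPs held more higher than lower calls, where all tested genes were 26.3% higher and 25.8% lower at 25 nM, and 29.2% higher and 31.5% lower at 50 nM. Of 7 proteins named SNRNP, 4 were higher at each dose (57.1%) and none lower, a called share close to the background of 52.0% at 25 nM and 60.7% at 50 nM. SNRNP70, the U1 protein that binds the first loop of its RNA, stood at 31.3 ± 1.38 FPKM in DMSO, 49.6 ± 4.63 at 25 nM and 55.3 ± 1.77 at 50 nM (log2 fold change 0.66 and 0.82; adjusted p = 7.42e-05 and 1.06e-05). Of 9 other tri-snRNP proteins, 7 were higher at 25 nM and 4 at 50 nM, and none lower, among them the helicase DDX23 (26.3 ± 0.0860 to 35.2 ± 1.03 and 32.0 ± 0.898 FPKM). Of 12 U2 auxiliary factors, 7 were higher and 1 lower at 25 nM, and 7 higher and none lower at 50 nM; U2AF2, which reads the polypyrimidine tract, rose by 0.50 and 0.55 on the log2 scale, and RBM5 by 0.94 at 50 nM. Exon junction complex genes were higher in 6 of 8 cases at each dose, led by ACIN1 (0.52 and 0.81). TPM scaling narrowed these splits at 25 nM, to 3 higher and 2 lower of the SNRNP genes, 4 and 0 of the tri-snRNP genes, 3 and 3 of the U2 auxiliary factors and 4 and 1 of the exon junction genes. At 50 nM it gave 3 and 3, 2 and 1, 4 and 4, and 3 and 2, in the same order. Of the 9 tri-snRNP genes, 8 were higher at 50 nM with equal fragment totals and 8 with the length trend removed.

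In the PRP19 complex list 7 of 17 genes were higher and 2 lower at 25 nM (52.9% called, against 52.0% of all tested genes), and 2 were higher and 6 lower at 50 nM (47.1%, against 60.7%). Under TPM the splits were 3 and 3 at 25 nM and 1 and 9 at 50 nM, where 40.2% and 43.0% of all tested genes were lower. At 50 nM it was 7 and 6 with equal fragment totals and 4 and 5 with the length trend removed. CDC5L, its core protein, fell by 0.51 on the log2 scale at 50 nM (11.7 ± 0.296 to 8.21 ± 0.600 FPKM, adjusted p = 0.000127), and CRNKL1 fell by 0.54. Among 11 helicases and second-step factors, 4 were higher and 2 lower at 25 nM, and 4 higher and 4 lower at 50 nM (under TPM 1 and 4, then 2 and 5). Their called shares were 54.5% and 72.7%. DDX39B, a helicase of early assembly and messenger RNA export, stood at 5.46 ± 0.362, 10.6 ± 0.871 and 16 ± 0.777 FPKM (0.94 and 1.54; adjusted p = 1.66e-05 and 7.45e-07). In the minor spliceosome list 5 of 9 genes were higher and 1 lower at 25 nM, and 5 higher and none lower at 50 nM (66.7% and 55.6% called, against 52.0% and 60.7%). Under TPM 2 were higher and 2 lower at 25 nM, and 3 higher and none lower at 50 nM; with equal fragment totals 7 were higher and none lower at 50 nM. CCDC84 rose by 1.18 at 25 nM and 1.99 at 50 nM, from 3.48 ± 0.162 to 8.04 ± 0.635 and 14.2 ± 1.20 FPKM.

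Genes that load Sm proteins onto snRNA were seldom called higher. Of 16 genes of the SMN complex and Sm assembly, 1 was higher and 4 lower at 25 nM, and 1 higher and 7 lower at 50 nM. The called share was 31.2% at 25 nM and 50.0% at 50 nM, below the 52.0% and 60.7% of all tested genes, and 4 of 16 lower at 25 nM is close to the 25.8% of all tested genes. All 25 nM libraries lay above DMSO in 6 of the 16 and below it in 4. Of all tested genes 31.5% and 31.1% did so. At 50 nM these were 2 and 7, against 33.9% and 36.5%. The median log2 fold change was 0.05 at 25 nM and -0.02 at 50 nM, against 0.02 and 0.00. Under TPM 1 was higher and 8 lower at each dose, where 40.2% and 43.0% of all tested genes were lower. With equal fragment totals the split at 50 nM was 3 and 6. GEMIN4, an SMN complex subunit, stood at 5.18 ± 0.143, 3.54 ± 0.315 and 2.81 ± 0.105 FPKM (log2 fold change -0.54 and -0.86; adjusted p = 0.000241 and 9.52e-06). WDR77, the cofactor of the methyltransferase PRMT5, was the one that rose, by 0.53 and 0.51. Cytoplasmic decay partners of the LSM1 ring were lower in 4 of 8 cases at 25 nM and 6 of 8 at 50 nM, with none higher, where 25.8% and 31.5% of all tested genes were lower. Under TPM 7 were lower at 25 nM and 6 at 50 nM, and with equal fragment totals 4 and 3. With the length trend removed 2 were lower at 25 nM, and 3 lower and 1 higher at 50 nM. The decapping activator DDX6 fell from 15.6 ± 0.265 to 10.2 ± 0.467 and 9.92 ± 0.363 FPKM (adjusted p = 1.71e-05 and 5.48e-06) and LSM1 to LSM7 rose. In these bulk samples a change in a messenger RNA's share cannot be told apart from a change in the total RNA of the cell.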

How the data were processed

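RNA of 9 ACHN libraries in 3 groups was sequenced. Per the submitters' processing notes the build is hg38; the sources used here name no aligner, counter, annotation release or strandedness. The authors deposited FPKM for 30673 genes, and log2 FPKM (no pseudocount, per the file headers and values) for the 18859 genes above 0 in all libraries, which adds symbols, types, positions and lengths. FPKM times length gave whole fragments for 100.0% of values within 0.01.

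The members and the role, pathway and marker lists were chosen with earlier results of these data known. FPKM is not a count, so limma 3.58.1 (R 4.3.3; lmFit, eBayes with trend and robust) was fitted to log2(FPKM + 0.1) of all 9 libraries with group as the only term, over genes that reached 0.5 FPKM in 3 or more libraries. The pseudocount understates changes of low genes. The fit was tested on simulated data. A call needed a Benjamini-Hochberg adjusted p under 0.05 over 15541 genes. Levels are mean ± SD (n = 3). Ratios used exact permutation tests (scipy 1.17.1).

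Every member could be named; 1 of the 47 is not reported here by itself or drawn, and stays in the counts. Values in every library are given for the 4 largest called changes in either direction of each comparison (mean of at least 5 FPKM) and the most abundant member of each role; SNRPN, LSM8 and the other members were added as the text needed. Of each pathway list the 2 smallest p-values, and 1 of the other direction, could be named. All 47 members have the same start and end in GENCODE release 29, whose exons gave the overlaps; 19 members share exon bases with another gene, 4 of them on the same strand. Alternatives were other pseudocounts, filters and scalings, a length trend (lowess) removed, fits on 6 libraries, a replicate term, single libraries left out and, added after the data were seen, limma voom on recovered fragments.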

Additional observations from a re-analysis of the deposited data

How the results depend on the processing

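Of the genes called, 22 of 39 at 25 nM, 17 of 35 at 50 nM and 11 of 20 between the doses kept their call under every alternative that tested them. The 22 and the 17 include SNRPN, which passed the filter only through treated libraries, so its calls are not read as support. Under the 2 other pseudocounts no call was lost. The median of the 47 genes at 25 nM (0.33) moved to 0.13 under TPM and to 0.24 with the length trend removed, with or without a replicate block. At 50 nM (0.23) it moved to 0.30 with equal fragment totals and 0.06 under TPM, and between the doses (-0.13) to -0.03 with equal totals. Leaving out single libraries gave 35 to 39 calls and medians of 0.27 to 0.38 at 25 nM, 29 to 37 and 0.19 to 0.27 at 50 nM, and 15 to 22 and -0.14 to -0.08 between the doses. Calls among the other spliceosome genes between the doses (38) were 24 with only the 6 libraries compared, and 23 to 42 with single libraries left out; 23 came without 50 nM replicate 1.

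A call, as first made or under the alternative, went with a reversed direction for SF3A1 at 25 nM (-0.05 under TPM), SF3B4 at 25 nM (-0.07 under TPM, -0.02 with the length trend removed and -0.02 with the replicate block added to that), SF3B6 at 50 nM (-0.18 with the length trend removed, with and without the replicate block), PRPF8 (0.14 at 25 nM and 0.12 at 50 nM with the length trend removed, 0.12 at 50 nM with the block as well) and PRPF4B at 50 nM (0.12 with the length trend removed). Further reversals were those of SF3B3 at 25 nM (-0.04), PRPF38A at 25 nM (-0.03) and SF3B2 at 50 nM (-0.06) under TPM, and those of SF3B1 at 25 nM (0.16), SF3B3 at 50 nM (0.22) and SF3B5 at 50 nM (-0.40) with the length trend removed, with and without the replicate block. The cause of these moves was not tested. Same-numbered libraries correlated at -0.047 to 0.079 in their deviations from the group means, so no shared replicate effect was seen. With 3 libraries per group this cannot decide whether the numbers pair them. A replicate block gave 38, 35 and 18 calls among the 47 genes. The 2 planned count models were not run, since the files hold FPKM; limma voom on the recovered fragments called 39, 35 and 23 of the 47. The range of 11 to 13877 fragments per gene and library makes SNRPN the least precise value.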

Other observations

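Some rows named as pseudogenes of a member were called in the same direction as that member, and others were not called. There were 22 rows named as pseudogenes, 8 of them tested, and 7 typed as processed pseudogenes in the filtered table. SNRPEP2 and SNRPGP14 were tested and called in no comparison. Of all tested genes 52.0% were called at 25 nM and 60.7% at 50 nM, so calls among so few rows are not read as a result. SNRPGP10, a processed copy of SNRPG, measured 8.54, 8.13 and 11.6 FPKM in DMSO, 19.8, 15.1 and 22.7 at 25 nM, and 19.1, 17.3 and 21.7 at 50 nM (limma log2 fold change 1.02, adjusted p = 0.0015, and 1.04, adjusted p = 0.000959). SNRPGP2 was higher at 25 nM (1.22, adjusted p = 0.0113), and SNRPGP15 and SNRPEP4 were higher at 50 nM (0.61, adjusted p = 0.0282, and 0.58, adjusted p = 0.0356). LSM12P1, a copy of LSM12, was lower at 50 nM (-0.78, adjusted p = 0.0126). SNRPGP5 was listed at 0 in all 3 DMSO libraries and above 0 in all 6 treated ones. These rows are 219 to 588 bases long where a length is given, and near-identical copies share reads with their parent genes, so the separate values are uncertain.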
